A study of Drosophila melanogaster with 6 samples.

Results

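Eukaryotic translation initiation factors, named eIF, are the proteins that bring an mRNA, the initiator tRNA and the ribosomal subunits together at the start of protein synthesis. The eIF4 factors bind the mRNA cap and unwind the leader, eIF3 is a many-subunit scaffold on the small ribosomal subunit, and eIF2 carries the initiator tRNA as long as eIF2B recharges it with GTP. Stress kinases that phosphorylate eIF2 block this recharging, and eIF6 holds the large subunit back from joining too early. The eIF genes were compared here between 2 established Drosophila melanogaster cell lines, SL2 and Kc167.

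The members were the named genes whose current symbol begins with eIF and a digit. The current RefSeq annotation has 44 such genes, and 10 of them were on the arrays under a single name, each as 1 cDNA clone printed in 2 spots. Values on all 6 arrays were present for 9 of the 10, out of 7201 features tested in all (2216 genes with a name, and 4985 unnamed clones). Subunits of eIF2B (2 of 5), the pair eIF2A and eIF2D (2 of 2), eIF3 subunits (3 of 16), factors of the eIF4 group (1 of 13) and eIF6 were measured. Subunits of eIF2, eIF1, eIF1A, eIF5 and eIF5B were not measured under a gene name, so the core of the pathway is thinly covered.

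SL2 and Kc167 are embryo-derived lines with properties of blood cells, SL2 held to be of male and Kc167 of female origin. Untreated dense cultures were kept at 22 °C, SL2 in CCM3 medium and Kc167 in Schneider's medium with 5% fetal bovine serum, both with gentamicin, so line and medium cannot be told apart. Each array was hybridised with cDNA of both lines, labelled from 80 µg of total RNA: SL2 carried Cy5 and Kc167 Cy3 on 3 arrays, called flipped, and the dyes were the other way round on the other 3. Each flipped array was averaged with its same-numbered counterpart, giving n = 3.

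Arrays had values for 16710 to 16844 of 16896 spots in the flipped orientation and for 15104 to 15885 with Kc167 in Cy5, and 6 arrays limit the precision. The labels do not say whether the replicates are separate cultures, so p-values measure a spread that may be technical. Ratios are log2 values of SL2 over Kc167, so a positive value means more RNA in SL2 and a negative one more in Kc167. Neither the direction nor the base of the logarithm is stated: SL2 comes first in the titles, and with the opposite direction all signs would turn together. A ratio carries no level, so the levels of the factors, or of blood-cell markers, in either line could not be read. Of 10 such marker genes 4 were measured, of which 2 were higher in SL2 and 2 in Kc167. The single measured neuron marker and the single muscle marker were higher in SL2, and neither of the 2 measured fat body markers passed. Of all features 60.2% passed in either direction, and 28.4% were higher in SL2. The muscle marker was negative (-0.20) on the array of replicate 2 with Kc167 in Cy5. Its ratio also differed between the dye orientations, by 0.67 (flipped minus Kc167 in Cy5, limma adjusted p = 0.033). So did that of 1 of the 2 blood-cell markers higher in SL2, by -1.02 (limma adjusted p = 0.015), with array values of 0.64 to 2.52. Of all features 9.46% passed this test.

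Of the 9 eIF genes with complete values, 6 were higher in SL2, 2 were higher in Kc167 and 1 did not pass (limma, adjusted p under 0.05 over all 7201 features). Differences of this kind were common, since 60.2% of all features passed, 28.4% being higher in SL2 and 31.8% higher in Kc167. The median ratio of the 9 genes was 0.22, against -0.02 over all features, and the median size of their ratios was 0.39, against 0.25. All 9 genes kept 1 sign on all 6 arrays, which 47.2% of all features did. The largest differences among them were those of eIF6, higher in SL2, and eIF2A, higher in Kc167. Only eIF2A passed at 2-fold or more, as 6.53% of features did. It did so narrowly, with a mean of -1.02, and fell short of 2-fold without replicate 2 (-0.93).

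**Figure D1:**
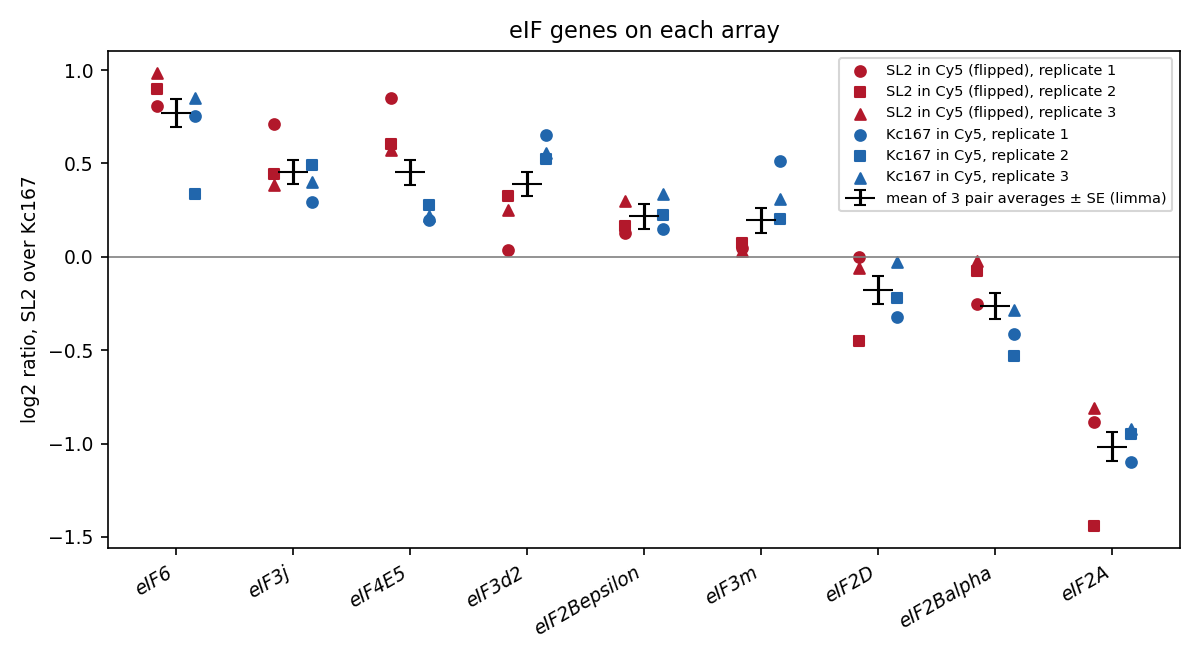
Log2 ratio of SL2 over Kc167 (vertical axis) for the 9 eIF genes in the order of their mean, with 1 point per array, flipped arrays to the left and arrays with Kc167 in Cy5 to the right of each mean ± SE (n = 3). The points of eIF6 lie between 0.33 and 0.98 and those of eIF2A between -1.44 and -0.81, while the points of eIF2D come close to 0.

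The gene of the factor that guards the large ribosomal subunit was higher in SL2. For eIF6 the log2 ratio was 0.81, 0.90 and 0.98 on the flipped arrays and 0.76, 0.33 and 0.85 on the arrays with Kc167 in Cy5. The lowest value, that of replicate 2 with Kc167 in Cy5, stood well below the other 5, and both of its spots were low, at 0.29 and 0.38. The mean was 0.77 ± 0.08 (SE, n = 3), or 1.71-fold higher in SL2, with a limma adjusted p of 1.4e-05. Of the 2216 named genes, eIF6 ranked at 123 from the SL2 end, and 11.5% of all features had a ratio of larger size.

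The genes of 2 factors that handle the initiator tRNA outside the canonical eIF2 route were both negative, though only 1 passed. Their clones have consecutive spot numbers, 12843 and 12844 for eIF2D and 12845 and 12846 for eIF2A. Whether spot position contributed to the shared sign was not tested. With each array's local median over 24 neighbouring clones subtracted, the ratio of eIF2A was -0.94. The protein of eIF2A binds initiator tRNA as a single chain and is unrelated to the alpha subunit of eIF2 in spite of the similar name. Its log2 ratio was -0.88, -1.44 and -0.81 on the flipped arrays and -1.10, -0.95 and -0.92 with Kc167 in Cy5, so that every array lay far below 0. The mean was -1.02 ± 0.08 (SE, n = 3), or 2.02-fold higher in Kc167, with a limma adjusted p of 2.8e-06. It ranked at 75 from the Kc167 end of the named genes. Its 95% interval, -1.19 to -0.84, included differences smaller than 2-fold. The lowest value was that of the flipped array of replicate 2, and without replicate 2 the mean was -0.93. With Kc167 in Cy5 alone it was -0.99. It stayed past 2-fold without replicate 1 (-1.03), without replicate 3 (-1.09) and on the flipped arrays alone (-1.04).

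The gene eIF2D encodes a factor that can deliver tRNA to the ribosome and acts in recycling and reinitiation. It had -0.0001, -0.45 and -0.06 on the flipped arrays and -0.32, -0.22 and -0.03 with Kc167 in Cy5. All 6 values were negative, but 3 were close to 0, and the 2 spots read -0.20 and -0.70 on the flipped array of replicate 2. The mean of -0.18 ± 0.07 (SE, n = 3; 95% interval -0.35 to -0.01) did not pass, with a limma adjusted p of 0.061, but it moved with the replicates. It was -0.25 without replicate 3 (adjusted p = 0.041), -0.10 without replicate 2 (adjusted p = 0.40) and -0.19 without replicate 1 (adjusted p = 0.12). Without the flipped array of replicate 1 it was -0.23 with an adjusted p of 0.046, and with each array's local median over 24 neighbouring clones subtracted it was -0.085 with an adjusted p of 0.37.

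The genes of the 2 measured subunits of eIF2B, the exchange factor of eIF2, differed in opposite directions. The gene of the catalytic subunit, eIF2Bepsilon, had 0.13, 0.16 and 0.30 on the flipped arrays and 0.15, 0.22 and 0.34 with Kc167 in Cy5, and its duplicate spots never differed by more than 0.056. The mean was 0.22 ± 0.07 (SE, n = 3; 1.16-fold higher in SL2), with a limma adjusted p of 0.020. It rested on replicate 3, the highest in both orientations: without it the ratio was 0.17, with an adjusted p of 0.17. Neither orientation alone passed, with an adjusted p of 0.094 in the flipped arrays and of 0.058 with Kc167 in Cy5.

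The gene of the regulatory alpha subunit, eIF2Balpha, through which phosphorylated eIF2 acts on the complex, had -0.26, -0.08 and -0.02 on the flipped arrays and -0.41, -0.53 and -0.29 with Kc167 in Cy5. The orientations did not overlap, and the flipped values were nearer 0. Its 2 spots read -0.80 and -0.26 on the array of replicate 2 with Kc167 in Cy5. The mean was -0.26 ± 0.07 (SE, n = 3; 1.20-fold higher in Kc167), with a limma adjusted p of 0.0078, whereas the flipped arrays alone gave -0.12 with an adjusted p of 0.31. Within replicates, eIF2Bepsilon exceeded eIF2Balpha by 0.48 ± 0.01 on the log2 scale (SD of pair averages, n = 3), in 3 of 3. This SD leaves out the spread between the orientations, and the gap was wider with Kc167 in Cy5. Means of eIF2Bepsilon and eIF2Balpha were 0.20 and -0.12 on the flipped arrays, and 0.24 and -0.41 with Kc167 in Cy5. An exact sign-flip test of 3 values gives no two-sided p below 0.25, which was its p here.

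All 3 eIF3 genes with complete values were higher in SL2, a direction that 28.4% of all features had. Of these genes, only eIF3j also passed in each dye orientation alone. The gene eIF3j encodes a loosely bound subunit that lies near the mRNA channel of the small subunit. It had 0.71, 0.44 and 0.38 on the flipped arrays and 0.29, 0.49 and 0.40 with Kc167 in Cy5, so the orientations overlapped. Its mean was 0.45 ± 0.07 (SE, n = 3; 1.37-fold higher in SL2), with a limma adjusted p of 0.00022.

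The gene eIF3d2 is a paralog of eIF3d1, the gene of the subunit that contacts the mRNA cap, and is known mainly for expression in the testis. Flipped arrays gave 0.04, 0.32 and 0.25, against 0.65, 0.52 and 0.56 on those with Kc167 in Cy5, with no overlap. The mean of 0.39 ± 0.06 (SE, n = 3; 1.31-fold higher in SL2) passed, with a limma adjusted p of 0.00054, but with the flipped arrays alone it was 0.20 and the adjusted p was 0.10.

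The third, eIF3m, encodes another subunit of the complex. It was close to 0 on the flipped arrays, at 0.05, 0.07 and 0.03, and had 0.51, 0.20 and 0.31 with Kc167 in Cy5, so the orientations were again apart. The mean of 0.20 ± 0.07 (SE, n = 3; 1.15-fold higher in SL2) had a limma adjusted p of 0.028. It no longer passed without replicate 1 (0.15; adjusted p = 0.11), without replicate 3 (0.21; adjusted p = 0.084) or in the flipped arrays alone (0.05; adjusted p = 0.64).

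Another eIF3 paralog, eIF3f2, had values on 5 arrays and was left out of the counts. Its log2 ratio was -0.48, 0.06 and -0.58 on the flipped arrays and 0.07 and -0.06 on the first and second with Kc167 in Cy5, and both signs occurred. In a fit of 7989 features that needed only 1 value in each pair, the ratio was -0.26 ± 0.11 (SE, n = 3, the third pair being 1 array), with a limma adjusted p of 0.070.

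Of the cap-binding eIF4E family only eIF4E5, another gene known mainly from the testis, was measured. It had 0.85, 0.60 and 0.57 on the flipped arrays and 0.20, 0.28 and 0.22 with Kc167 in Cy5, without overlap. The mean was 0.45 ± 0.07 (SE, n = 3; 1.37-fold higher in SL2), with a limma adjusted p of 0.00024, and the arrays with Kc167 in Cy5 alone gave 0.23 with an adjusted p of 0.055. The sequences of the clones were not used here, so cross-hybridisation of eIF4E5, eIF3d2 and eIF3f2 with RNA of their paralogs was not tested.

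Ordered by ratio, the genes fell into blocks by their pair averages, though values on single arrays overlapped between some blocks. On single arrays eIF6 went down to 0.33, while eIF4E5 went up to 0.85. The 3 pair averages of eIF6 (0.62 to 0.92) lay above those of eIF3j (0.39 to 0.50), which overlapped with those of eIF4E5 and with those of eIF3d2. The averages of eIF2Bepsilon and eIF3m overlapped with each other and lay below eIF3d2, and those of eIF2D and eIF2Balpha overlapped and lay below 0. Those of eIF2A (-1.19 to -0.87) were below all others, by 0.75 on average from eIF2Balpha.

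**Figure D2:**
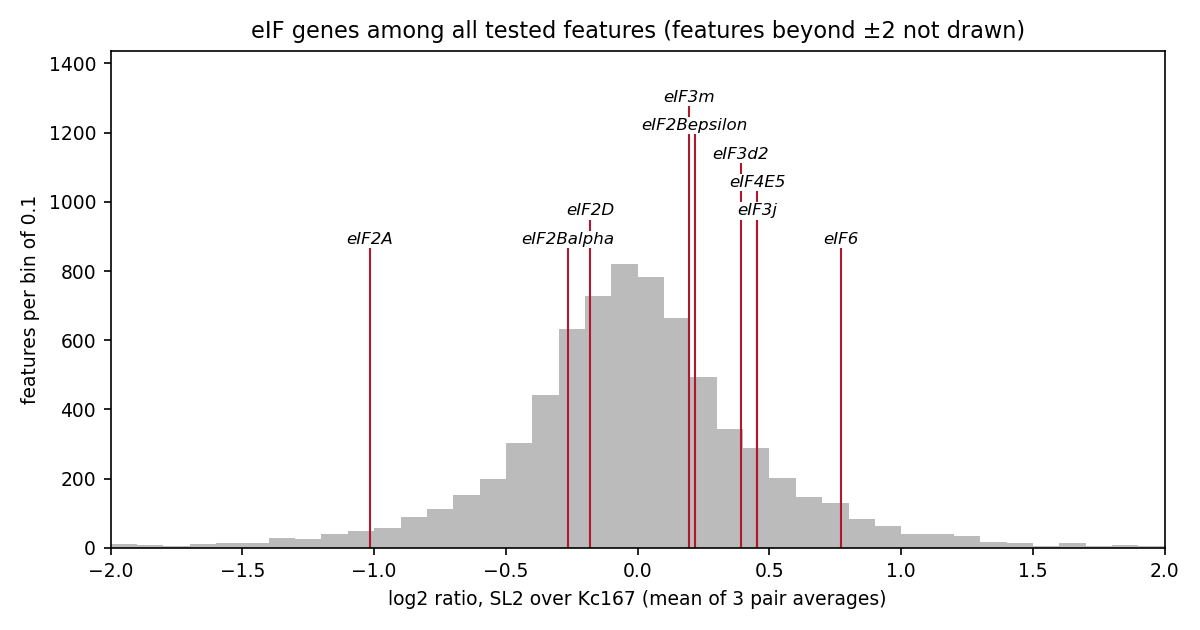
Number of features (vertical axis, bins of 0.1) by log2 ratio of SL2 over Kc167 (horizontal axis), with the mean ratio of each eIF gene as a line. Only eIF6 at 0.77 and eIF2A at -1.02 stand in the thin parts of the distribution, and the other 7 lie between -0.26 and 0.45.

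The dye flip asks whether a ratio depends on which line carried which dye. Per the labels, the Cy5 laser power and gain were 100 and 66 on the flipped arrays and 95 and 60 on the others, so dye and scanner setting cannot be told apart here. No eIF gene passed limma's test of the difference within the 3 pairs (adjusted p under 0.05; 9.46% of features passed), and 2 of 9 had an unadjusted p under 0.05, which 29.3% of features had. Without limma's pooling of variance 0 of 9 passed, but a test of 3 pairs without pooling has little power. Its share over all features was not counted, so no conclusion is drawn from it. In 4 of the 9 genes the orientations did not overlap, as in 36.1% of features. The difference, flipped minus Kc167 in Cy5, was 0.44 ± 0.14 for eIF4E5 (SE, n = 3 pairs; limma adjusted p = 0.073) and -0.37 ± 0.14 for eIF3d2 (adjusted p = 0.12). It was -0.29 ± 0.14 for eIF3m (adjusted p = 0.20), 0.29 ± 0.14 for eIF2Balpha (adjusted p = 0.19) and 0.25 ± 0.15 for eIF6 (adjusted p = 0.30). For eIF2A (-0.06 ± 0.17) and eIF2Bepsilon (-0.04 ± 0.13) the mean was small. The 3 pairs of eIF2A had 0.21, -0.49 and 0.11, so opposite signs offset each other in its mean, while those of eIF2Bepsilon had -0.02, -0.06 and -0.04. Mean differences of the genes ran in both directions.

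**Figure D3:**
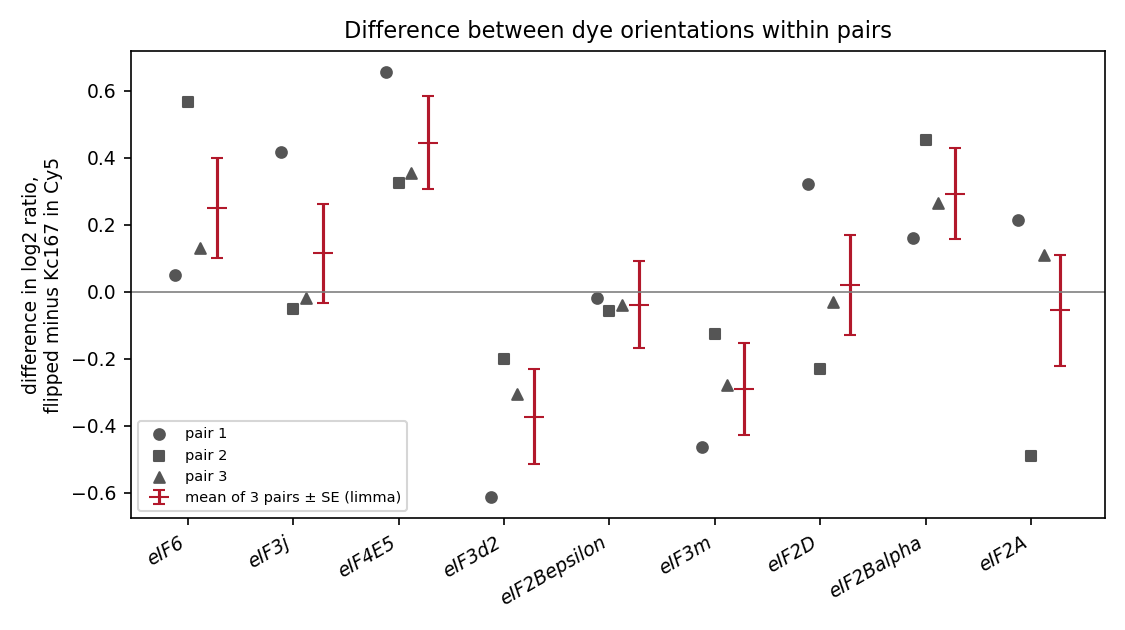
Difference in log2 ratio between the dye orientations, flipped minus Kc167 in Cy5 (vertical axis), for each eIF gene in each of 3 same-numbered pairs, with the mean ± SE. All 3 pairs are above 0 for eIF4E5, eIF2Balpha and eIF6 and below 0 for eIF3d2, eIF3m and eIF2Bepsilon.

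Of 20 measured genes on 6 lists of translation genes, 7 were higher in SL2, 9 higher in Kc167 and 4 did not pass (limma; 60.2% of all features passed), and their median ratio was -0.12. Ribosomal protein genes are not on these lists. Of the cytosolic ones 6 of 92 were measured: 4 were higher in SL2 and 0 in Kc167 (median 0.43). Of the mitochondrial ones 3 of 73 were measured, and all 3 were higher in SL2 (median 1.12). Of all features 28.4% had this direction, and so few genes do not describe their families. Of 5 measured initiation cofactors and regulators without an eIF name, 2 were higher in SL2 and 2 in Kc167. Pdcd4, whose mammalian relative inhibits the helicase eIF4A, was higher in Kc167, with -0.86, -1.18 and -1.18 on the flipped arrays and -1.68, -1.67 and -1.29 with Kc167 in Cy5. Its mean was -1.31 ± 0.07 (SE, n = 3; limma adjusted p = 2.3e-07), below that of eIF2A.

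The gene of the RNA-binding protein larp, a regulator of mRNAs of the translation machinery, was also higher in Kc167, with -0.42 ± 0.07. The eIF4E-binding protein gene mxt had 0.45 ± 0.08 and the DEAD-box helicase gene bel had 0.38 ± 0.06, both higher in SL2, and kra (0.10 ± 0.07) did not pass.

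Both measured genes of the eIF2 stress branch were higher in Kc167 by small amounts, a direction that 31.8% of all features had. PEK, the gene of the eIF2 kinase of the endoplasmic reticulum, had -0.37, -0.22 and -0.17 on the flipped arrays and -0.34, -0.40 and -0.49 with Kc167 in Cy5, with a mean of -0.33 ± 0.06 (SE, n = 3; limma adjusted p = 0.0014). The gene crc, which encodes the fly ATF4 whose translation rises when eIF2 is phosphorylated, had -0.36 ± 0.08 (adjusted p = 0.0038).

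In the TOR pathway, which couples nutrients to initiation, Lst8, the gene of a TOR complex component, had -0.94 ± 0.07 and Tsc1, the gene of an inhibitor of TOR, had -0.83 ± 0.09. Array values of Tsc1 ran from -1.35 to -0.25. REPTOR, a transcription factor gene of the pathway, had -0.18 ± 0.08 and did not pass. Higher in SL2 were pelo, the gene of a rescue factor of stalled ribosomes (0.93 ± 0.07), and eRF1, the gene of the release factor that reads stop codons (0.27 ± 0.06). CG33158, the only measured gene on the list for large-subunit maturation and eIF6 release, had 0.30 ± 0.07.

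**Figure D4:**
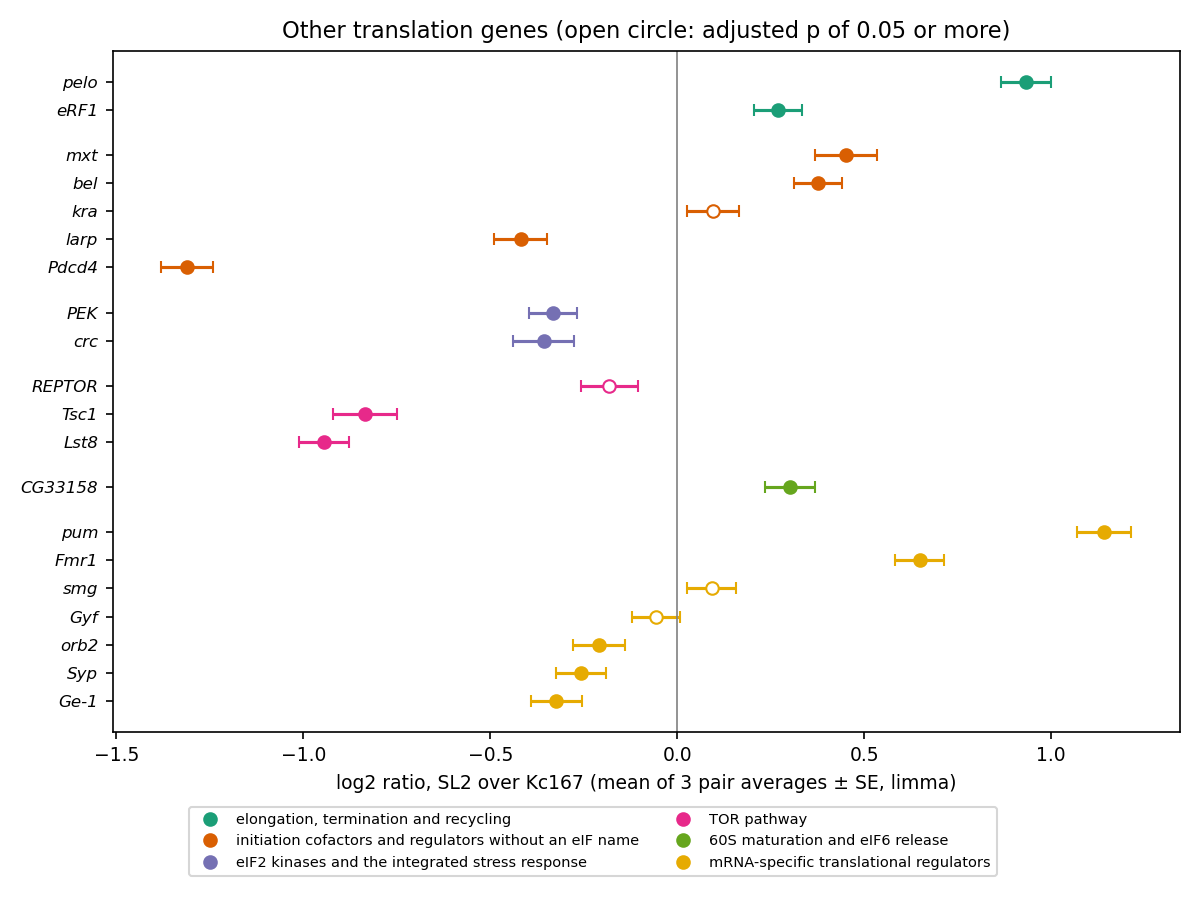
Log2 ratio of SL2 over Kc167 (horizontal axis, mean ± SE, n = 3) of 20 measured translation genes outside the eIF family, grouped by list, with open circles for genes that did not pass. Pdcd4 at -1.31 and pum at 1.14 are the extremes.

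By root mean square distance over the 6 array values, the named genes most like eIF6 were Naam (0.13 log2 units), heix (0.16) and Prosap (0.17). Those most like eIF2A were Lst8 (0.15), bnl (0.19) and Pop2 (0.19), and those most like eIF2Bepsilon were CG8958 (0.059), amx (0.075) and CG16721 (0.080). These distances compare 6 ratios that share their arrays and are a description.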

How the data were processed

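The deposited values, read here as log2, are log ratios per spot that the authors took from data they had normalised, per the labels' descriptions. The normalisation method is not given in the sources used here. Per the labels, spots were quantified with QuantArray without background subtraction. Column medians were -0.024 to 0.0022. No filter on dim spots was possible, since intensities were not used here.

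The 2 spots of a clone, then the clones of a gene, were averaged. Names came from the platform annotation through Entrez identifiers to RefSeq symbols (Release 6), which matched all 5666 spots with 1 symbol; 152 spots had several symbols and 11078 were unnamed here. Same-numbered arrays of both orientations were averaged, and limma 3.58.1 (lmFit, then eBayes; R 4.3.3) gave a two-sided test of each mean of n = 3 against 0, with p-values adjusted by Benjamini and Hochberg over 7201 features. SE is limma's moderated value. Orientation differences were tested likewise. The fit was also tested on simulated data, but the outcome is not given here, so no conclusion is drawn from it. Figures used matplotlib 3.10.9.

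Members, lists and alternatives were chosen with earlier results of these data known. Named are all members, the measured genes of the 6 translation lists and the 3 genes most alike; cell type markers and ribosomal protein genes are given as counts.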

Additional observations from a re-analysis of the deposited data

How the results depend on the processing

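Among the 18 alternatives, eIF6, eIF3j and eIF2A stayed past the threshold in each, with limma adjusted p-values of at most 0.048, 0.035 and 0.042. Several alternatives could change little: each gene is 1 clone, so the median over clones and the fit by clone kept its ratio. Reading the values as natural logarithms only rescales them. No eIF gene changed sign, but all 9 had 1 sign on all 6 arrays, so leaving arrays out could not turn a sign. No conclusion is drawn from the kept signs. The number of eIF genes that differed was 4 of 9 with the flipped arrays alone (3655 of all 7201 features passed), 6 with the arrays of Kc167 in Cy5 alone (3719) and 5 without pooling of variance over features, where 1926 of all features passed. It was 7 to 9 with 1 replicate, or the flipped array of replicate 1, left out, where 3809 to 4087 features passed. That array correlated less with the arrays of Kc167 in Cy5 (0.64 to 0.73) than the other flipped arrays did (0.78 to 0.83). With the replicate block on 6 arrays the number of eIF genes was 8, as it was without the block. Deviations of same-numbered arrays from their orientation's mean had correlations of -0.07, 0.11 and -0.10, and only the arrays numbered 2 correlated best with their own number, which does not show whether same-numbered arrays share RNA. Without pooling, eIF2Balpha (adjusted p = 0.092), eIF2Bepsilon (0.11) and eIF3m (0.096) did not pass, and with each array's local median over 24 neighbouring clones subtracted, eIF3m (0.18; adjusted p = 0.050) did not. Quantile normalisation gave 1 eIF gene, eIF4E5, with an orientation difference (0.48; adjusted p = 0.049). Read as natural logarithms, the ratios would stand for 2.16-fold for eIF6 and 2.76-fold for eIF2A. The cause of these changes was not tested.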

Other observations

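Among regulators that act on particular mRNAs, 2 of 7 measured genes were higher in SL2, 3 were higher in Kc167 and 2 did not pass (limma, adjusted over all features, of which 60.2% passed). The gene pum, which encodes an RNA-binding repressor, had 1.52, 1.32 and 1.03 on the flipped arrays and 1.07, 0.81 and 1.08 with Kc167 in Cy5, with a mean of 1.14 ± 0.07 (SE, n = 3). Fmr1, the fly gene of the fragile X protein, had 0.65 ± 0.07. The genes higher in Kc167 had small ratios: Ge-1, the gene of a decapping cofactor, had -0.32 ± 0.07, Syp -0.26 ± 0.07 and the CPEB-type gene orb2 -0.21 ± 0.07. The repressor gene smg (0.09 ± 0.06) and Gyf (-0.06 ± 0.06) did not pass.

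In gene order on the Release 6 chromosome arms, 8 of the 9 eIF genes had neighbours called in both directions among the 10 nearest measured genes, as did 89.1% of the 2156 named genes with 10 such neighbours. The exception was eIF2Bepsilon on X: of its 10 neighbours 8 were higher in SL2 and 0 in Kc167 (28.4% of all features were higher in SL2), 7 of the 10 had ratios at least as large as its own, and the median of the 10 was 0.44. At least 8 of 10 such neighbours were higher in SL2 for 18 of the 2156 genes, whose windows can overlap. For eIF6 on 2R, 5 of 10 were higher in SL2 and 1 in Kc167, with a median of 0.15 and 1 ratio as large. For eIF2A on 3L, 3 of 10 were higher in SL2 and 2 in Kc167, with a median of -0.03, and 1 ratio was as negative.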
